A study of Mus musculus with 6 samples.

Results

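Perlecan (Hspg2), agrin (Agrn), the nidogens (Nid1, Nid2), the multiplexin collagens (Col15a1, Col18a1) and the hemicentins (Hmcn1, Hmcn2) are the secreted proteins that join the laminin and type IV collagen networks of a basement membrane to each other and to the cell or the surrounding matrix. These 8 genes of the 49548 in the count table were chosen by name, for their place in the basement membrane, with earlier results of these data known. mRNA of native cardiac fibroblasts (CFs) from hearts of 5-week-old mice was sequenced in 3 WT and 3 CharmeKO libraries, to ask how loss of Charme, a long non-coding RNA of the heart, alters the fibroblasts' transcripts. CharmeKO mice carry a polyadenylation signal inserted into the Charme locus throughout the animal, so the hearts as a whole, and not the fibroblasts alone, were mutant, and WT mice lack it. All cells were obtained by dissociating the heart and depleting hematopoietic lineages. The labels also list a growth medium for these libraries. Each group holds more than 1 animal, as their Y-linked transcripts show, but the labels do not tie a library to an animal, so the p-values measure the spread between these libraries.

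A basement membrane is a thin sheet of matrix under endothelium and around cardiomyocytes, mural cells and nerves. Laminins polymerize at the cell surface, type IV collagen forms a covalent network, and nidogens and perlecan bridge them. Perlecan and agrin carry heparan sulfate chains that hold growth factors, types XV and XVIII collagen sit where the membrane meets the interstitial matrix and release antiangiogenic C-terminal fragments, and hemicentins are very long proteins of immunoglobulin repeats that fasten tissues to each other across the matrix.

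The total counts per library ranged from 9595701 to 42101393, with the lowest in WT replicate 3, and the 15789 genes that reached 10 counts in 2 or more libraries were tested. Charme itself was counted 26, 15 and 4 times in WT replicates 1 to 3 and 7, 0 and 0 times in CharmeKO replicates 1 to 3, a count of 0 leaving room for up to 3. Fibroblast markers were present in every library, with a summed level of 23713 to 32705 CPM (the count scaled to the library's total) for 9 genes in WT and 26816 to 29051 in CharmeKO, and 0 of the 9 passed the test. Most of this sum was Gsn, at 17340 to 26456 CPM in WT and 20095 to 22393 in CharmeKO, so the sum mainly follows that gene. The log2 fold changes of the 9 ran from -0.367 to 0.321, with a median of 0.027. Of the 11 endothelial and 9 mural markers 0 passed, with sums of 8021 to 9665 and 2570 to 2925 CPM in WT and 7854 to 9339 and 2534 to 2988 in CharmeKO, and no marker of these lists was at 0. At an unadjusted p under 0.05 stood 3 fibroblast (2 lower, 1 higher), 3 endothelial (1 lower, 2 higher) and 2 mural markers (2 lower), where 12.8% of all tested genes did. DESeq2 called 0, 1 and 1, the called ones lower, where it called 2.5% of all tested genes. The 10 cardiomyocyte markers summed to 348 to 446 CPM in WT and 524 to 819.6 in CharmeKO, and all 10 had a higher fitted level. Of these, Myh6, Tnni3 and Mb rose by edgeR's test, 8 had an unadjusted p under 0.05, DESeq2 called 6, and 7 had groups that did not overlap. The 7 epicardial markers summed to 57.8 to 76.1 CPM in WT and 34.0 to 41.7 in CharmeKO, and all 6 that were tested had a lower fitted level, with 4 at an unadjusted p under 0.05 and Wt1 lower by edgeR's test and the 1 called by DESeq2. Wt1 made up most of this sum, at 46.2 to 53.6 CPM in WT and 31.2 to 33.3 in CharmeKO. The other markers were scarce, with mean CPM of at most 5.32 in WT and 1.83 in CharmeKO. Of the 6 tested, Wt1 and Lrrn4 had groups that did not overlap, where 18.2% of all tested genes had such groups. Schwann cell markers summed to 90.4 to 114 CPM in WT and 121 to 148 in CharmeKO, leukocyte markers to 30.9 to 54.3 and 41.3 to 53.6, and erythroid genes to 26774 to 39207 and 24411 to 31742, with 0 past the test in each list, 1, 0 and 1 gene at an unadjusted p under 0.05, and 1, 0 and 0 by DESeq2. Of the 10 genes of the dissociation response, Hspa1a and Hspa1b, near-identical copies that can share reads, were higher by the test, and the list summed to 27597 to 39975 CPM in WT and 32509 to 35830 in CharmeKO. The libraries also split by Y-linked transcripts, which summed to at least 92.3 CPM in each of WT replicates 2 and 3 and CharmeKO replicate 3 and to at most 5.06 CPM in the others, a split that is uneven between the genotypes and that the labels do not give. Those others are called libraries without Y-linked transcripts below, though CharmeKO replicate 1 held 5.06 CPM of them. The part of these markers in the results that follow was not tested.

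All 8 genes were measured well above the filter, and all 8 had a lower fitted level in CharmeKO, where 48.8% of all tested genes did. The fold changes on the log2 scale ran from -0.81 for Hmcn2 to -0.18 for Agrn, with a median of -0.51 against 0.0096 over all tested genes. The quasi-likelihood test of edgeR, its p-values adjusted over the whole table by the Benjamini-Hochberg method, passed 0 of the 8 at 0.05, where 0.83% of all tested genes passed and 0.412% passed as lower. At an unadjusted p under 0.05, 6 of the 8 were lower, where 6.87% of all tested genes were. DESeq2 called 4 of the 8 lower, namely Hspg2, Col15a1, Col18a1 and Hmcn2, where it called 2.5% of all tested genes and 1.52% as lower, and edgeR without a filter on low counts called the same 4, where 1.81% of its genes were called lower. In 6 of the 8 genes each CharmeKO library lay under each WT library, and the exceptions were Agrn and Nid1. Of all tested genes, 18.2% had groups that did not overlap, and in 8.59% CharmeKO was the lower. In bulk RNA of this kind, fewer cells of a type and less RNA per cell cannot be told apart.

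**Figure D1:**
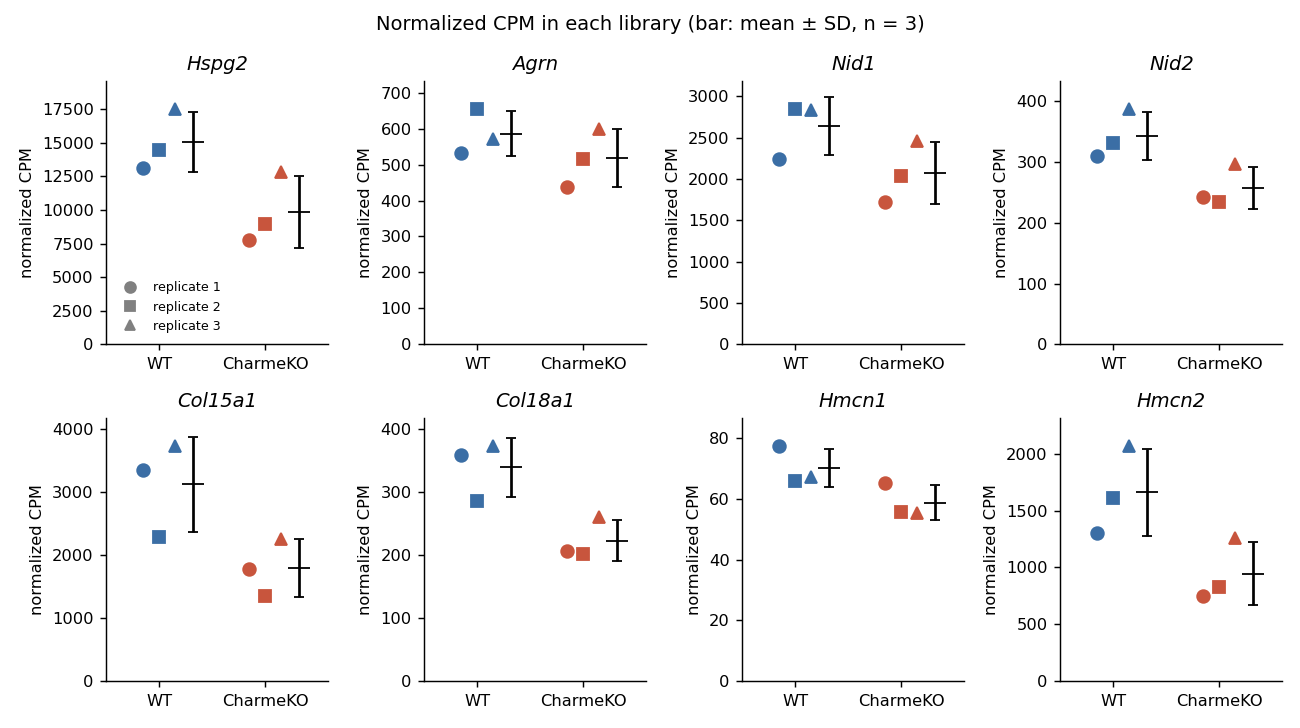
Normalized CPM of the 8 genes (vertical axes from 0) in the 3 WT (blue) and 3 CharmeKO (red) libraries, with the symbol giving the replicate number and the black bar the mean ± SD (n = 3). CharmeKO replicate 3 was the highest of its group in 7 of the 8 genes, and the groups overlap for Agrn and Nid1.

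Fold changes moved with GC content in these libraries, and less with gene length alone. The median log2 fold change was -0.017 for tested genes of 5 kb and over, with 52.8% lower, and 0.032 under 5 kb, with 46.2% lower. Among tested genes whose longest transcript had under 45% GC the median log2 fold change was 0.098, and among those of 60% GC and over it was -0.19, with 71.2% of 711 genes lower. Hspg2, Col18a1 and Hmcn2 belong to the 118 tested genes with a model of at least 5 kb and at least 60% GC, of which 88.1% were lower, with a median of -0.28. The GC contents of the 8 genes ran from 47.7% in Hmcn1 to 60.9% in Hspg2. With each library's trend over GC and length removed, 7 of the 8 genes stayed under 0, Agrn came to 0.02, the median became -0.30, and 0 of the 8 passed, where 0.26% of all genes so tested passed as lower.

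The stretches upstream of the starts of the 4 genes that DESeq2 called are shown because these genes carry the largest differences. They are from RefSeq on GRCm38.p6, each running 5′ to 3′ on the gene's own strand and ending at the RefSeq start or at the first annotated exon before it, with capitals on the letters of the motifs searched on both strands.
Hspg2, chr4:137468553-137468768, + strand: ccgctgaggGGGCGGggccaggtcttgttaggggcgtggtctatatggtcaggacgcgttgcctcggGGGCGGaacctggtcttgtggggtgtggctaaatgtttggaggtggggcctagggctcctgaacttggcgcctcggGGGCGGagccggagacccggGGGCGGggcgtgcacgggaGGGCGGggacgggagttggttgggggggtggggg
Col15a1, chr4:47207762-47208011, + strand: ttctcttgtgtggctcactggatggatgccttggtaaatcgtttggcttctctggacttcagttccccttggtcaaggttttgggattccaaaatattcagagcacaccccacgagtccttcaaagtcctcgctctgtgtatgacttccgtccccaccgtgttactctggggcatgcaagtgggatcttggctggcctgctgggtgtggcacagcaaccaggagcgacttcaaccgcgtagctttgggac
Col18a1, chr10:77166549-77166780, - strand: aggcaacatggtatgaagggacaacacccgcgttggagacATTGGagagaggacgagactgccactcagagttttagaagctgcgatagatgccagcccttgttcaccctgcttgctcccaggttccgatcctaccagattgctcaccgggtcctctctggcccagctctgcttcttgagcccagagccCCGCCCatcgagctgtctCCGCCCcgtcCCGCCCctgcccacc
Hmcn2, chr2:31314082-31314331, + strand: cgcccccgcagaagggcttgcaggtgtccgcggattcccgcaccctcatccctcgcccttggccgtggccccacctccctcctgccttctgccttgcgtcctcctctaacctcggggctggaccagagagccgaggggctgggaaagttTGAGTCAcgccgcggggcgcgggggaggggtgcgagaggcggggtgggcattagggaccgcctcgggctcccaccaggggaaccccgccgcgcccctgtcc
The motifs were the GC box GGGCGG, the CCAAT box CCAAT, the TATA box TATAAA and the AP-1 site TGACTCA, which stood in 32.7%, 33.8%, 12.4% and 4.46% of the 250-base windows upstream of 32851 mouse starts. The Hspg2 window, of 70.0% GC, held 5 GC boxes. The Col18a1 window shown held 3 GC boxes and 1 CCAAT box, while another RefSeq window of this gene, chr10:77113706-77113955, held none of the motifs. Hmcn2 held 1 AP-1 site, and Col15a1 held none of these letters. GC boxes were not particular to the genes shown, since windows of Agrn, the gene with the smallest fold change, held 12 and 2. A match is a description of the letters and not a bound site. RefSeq windows were matched for 7 of the 8 genes, Nid2 having none in the table used here.

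Hspg2 encodes perlecan, the large heparan sulfate proteoglycan that binds laminin, nidogen and type IV collagen and stores fibroblast growth factors. Its normalized CPM was 13164.5, 14495.5 and 17505.7 in WT replicates 1 to 3 and 7794.9, 8931.3 and 12863.2 in CharmeKO replicates 1 to 3. The groups did not overlap, but CharmeKO replicate 3 lay just under the lowest WT library and well above the other CharmeKO libraries. The means were 15055 ± 2224 and 9863 ± 2660 (SD, n = 3), and the log2 fold change was -0.61 ± 0.20 (SE, 95% interval -1.05 to -0.17), with an adjusted p of 0.242 in edgeR's quasi-likelihood test and 0.0293 in DESeq2. Hspg2 had the third highest mean CPM of all genes in the table and was number 26 by CPM per kb of exons. With the GC and length trend removed the log2 fold change was -0.29 ± 0.17 (SE).

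Agrn encodes agrin, the other heparan sulfate proteoglycan of the set, known for clustering acetylcholine receptors at the neuromuscular junction and for binding dystroglycan. Normalized CPM stood at 533.04, 654 and 572 in WT and 437, 516 and 599 in CharmeKO. The groups overlapped, with CharmeKO replicate 3 above WT replicates 1 and 3. The means were 586.5 ± 61.9 and 517 ± 81.1 (SD, n = 3), with a log2 fold change of -0.18 ± 0.15 (SE, 95% interval -0.50 to 0.14) and an adjusted p of 0.664 in edgeR's quasi-likelihood test. The value ran from -0.07 without CharmeKO replicate 1 to -0.30 without CharmeKO replicate 3. Removal of the GC and length trend left it at 0.02.

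Perlecan counts were 25.6 times agrin counts in WT and 18.8 times in CharmeKO, on the mean log2 scale. The log2 ratio of Hspg2 to Agrn, taken within each library and so free of any scaling between libraries, was 4.63, 4.47 and 4.94 in WT and 4.16, 4.11 and 4.42 in CharmeKO. The groups did not overlap, and the difference of -0.45 gave p = 0.1 in a two-sided exact permutation test, the smallest p that 3 libraries against 3 allow, and 0.4 after adjustment over the 6 ratios tested. The difference was -0.49 among the libraries without Y-linked transcripts and -0.28 among those with them. A ratio within a library can still carry that library's trend over GC content and length. Hspg2 has 60.9% GC and a gene model of 14307 bases, and Agrn has 56.5% and 9285. With the trend removed their log2 fold changes were -0.29 and 0.02, and the part of the trend in their ratio was not tested.

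Nid1 encodes nidogen-1, the dumbbell-shaped glycoprotein that links the laminin gamma 1 chain to type IV collagen. Nid1 had a normalized CPM of 2239, 2843 and 2839 in WT and 1716, 2037 and 2463 in CharmeKO. The groups overlapped, since CharmeKO replicate 3 was above WT replicate 1. The means were 2641 ± 348 and 2072 ± 374 (SD, n = 3), with a log2 fold change of -0.35 ± 0.17 (SE, 95% interval -0.71 to 0.015) and an adjusted p of 0.413 in edgeR's quasi-likelihood test. Without CharmeKO replicate 1 it was -0.23.

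Nid2 encodes nidogen-2, which binds the same partners and can stand in for nidogen-1 in part. Its normalized CPM was 311, 332 and 387 in WT and 242, 233 and 297 in CharmeKO, without overlap. The lowest WT library, replicate 1, was just above CharmeKO replicate 3. The means were 343 ± 39.4 and 258 ± 34.6 (SD, n = 3), with a log2 fold change of -0.41 ± 0.14 (SE) and an adjusted p of 0.257 in edgeR's quasi-likelihood test and 0.0890 in DESeq2. Nidogen-1 counts were 7.68 times nidogen-2 counts in WT and 8.0 times in CharmeKO, and the difference of 0.06 on the log2 scale was within the spread (two-sided exact permutation test, p = 0.8). The log2 ratio of Nid1 to Lamc1, the gene of its laminin partner, was -0.57 ± 0.12 in WT and -0.39 ± 0.20 in CharmeKO (SD, n = 3, two-sided exact permutation test, p = 0.2, adjusted 0.4), and the difference of 0.18 was 0.08 without CharmeKO replicate 2 and 0.28 without CharmeKO replicate 1.

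Col15a1 encodes the chain of type XV collagen, a chondroitin sulfate proteoglycan of vessel and muscle basement membranes whose C-terminal fragment is restin. Col15a1 was measured at a normalized CPM of 3356, 2287 and 3738 in WT and 1781, 1348 and 2258 in CharmeKO. The groups did not overlap, but the lowest WT library, replicate 2, and the highest CharmeKO library, replicate 3, were nearly level. The means were 3127 ± 752 and 1796 ± 455 (SD, n = 3), and the CharmeKO level was 57.4% of WT in the fit. The log2 fold change was -0.80 ± 0.22 (SE, 95% interval -1.28 to -0.32), with an adjusted p of 0.159 in edgeR's quasi-likelihood test and 0.00437 in DESeq2. Without WT replicate 2 it passed edgeR's quasi-likelihood test with a log2 fold change of -0.98 and an adjusted p of 0.0175, where 1.4% of all genes so tested passed as lower. With any other library left out Col15a1 did not pass. Its log2 fold change was smallest without CharmeKO replicate 2, at -0.63 with an adjusted p of 0.540 in the same test. Removal of the GC and length trend left it at -0.64 with an adjusted p of 0.335.

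Col18a1 encodes the chain of type XVIII collagen, a heparan sulfate proteoglycan whose C-terminal fragment is endostatin. Its normalized CPM was 358, 285 and 373 in WT and 206, 201 and 260.2 in CharmeKO. The groups did not overlap, and WT replicate 2 was again the lowest of its group. The means were 338 ± 47.2 and 223 ± 32.6 (SD, n = 3), with a log2 fold change of -0.60 ± 0.15 (SE, 95% interval -0.93 to -0.28) and an adjusted p of 0.118 in edgeR's quasi-likelihood test, the lowest of the 8, and 0.00474 in DESeq2. Without WT replicate 2 it also passed edgeR's quasi-likelihood test, with -0.72 and an adjusted p of 0.0194, but removal of the GC and length trend left it at -0.35 with an adjusted p of 0.421. With any other library left out Col18a1 did not pass, and its log2 fold change was smallest without WT replicate 3, at -0.53. Col15a1 counts were 9.11 times Col18a1 counts in WT and 7.95 times in CharmeKO, a difference of -0.20 on the log2 scale that was within the spread (two-sided exact permutation test, p = 0.3, adjusted 0.45). That difference was -0.07 without CharmeKO replicate 2, -0.13 without WT replicate 3 and -0.05 among the libraries with Y-linked transcripts.

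Hmcn1 encodes hemicentin-1, also called fibulin-6, and was the least abundant of the 8. Levels in normalized CPM were 77.5, 66.0 and 67.2 in WT and 65.3, 55.8 and 55.3 in CharmeKO. The groups were only just separate, and here CharmeKO replicate 3 was the lowest library and WT replicate 1 the highest, unlike in most of the other genes. The means were 70.3 ± 6.28 and 58.8 ± 5.64 (SD, n = 3), with a log2 fold change of -0.26 ± 0.12 (SE) and an adjusted p of 0.387 in edgeR's quasi-likelihood test.

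Hmcn2 encodes hemicentin-2, its paralog. Its normalized CPM was 1306, 1609 and 2069 in WT and 744, 831 and 1258 in CharmeKO. The groups did not overlap, WT replicate 1 lying just above CharmeKO replicate 3. The means were 1661 ± 384 and 945 ± 275 (SD, n = 3), and the CharmeKO level was 56.9% of WT in the fit. The log2 fold change of -0.81 ± 0.22 (SE, 95% interval -1.29 to -0.34) was about that of Col15a1, with an adjusted p of 0.151 in edgeR's quasi-likelihood test and 0.00396 in DESeq2. Without CharmeKO replicate 3 it was -1.08 and passed edgeR's quasi-likelihood test with an adjusted p of 0.0412, where 0.773% of all genes so tested passed as lower. With any other library left out Hmcn2 did not pass, and its log2 fold change was smallest without WT replicate 3, at -0.63. Removal of the GC and length trend left it at -0.49. The log2 ratio of Hmcn1 to Hmcn2 was -4.54 ± 0.44 in WT and -3.97 ± 0.50 in CharmeKO (SD, n = 3), a difference of 0.57 with overlapping groups (two-sided exact permutation test, p = 0.2, adjusted 0.4). That difference was 0.34 without CharmeKO replicate 1, 0.37 without WT replicate 3 and 0.27 among the libraries with Y-linked transcripts. Hmcn1 has 47.7% GC and Hmcn2 60.1%, and the part of this difference in their ratio was not tested.

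**Figure D2:**
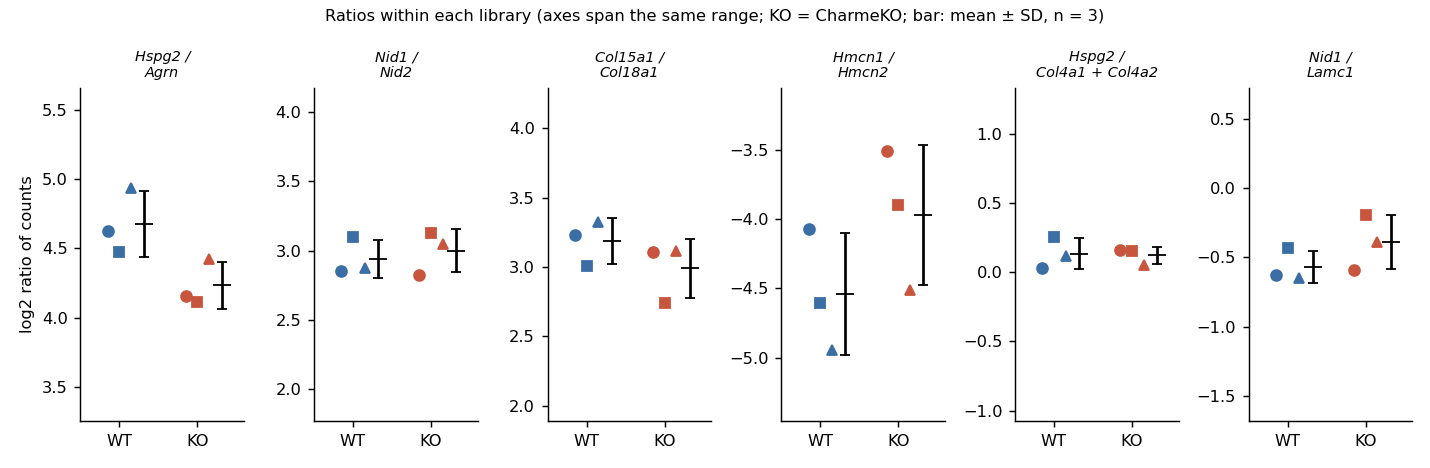
Log2 ratio of the counts of 2 genes (or of 1 gene to the sum of 2) within each WT (blue) and CharmeKO (red) library, with the symbols circle, square and triangle for replicates 1, 2 and 3 and the black bar for the mean ± SD (n = 3). Only the ratio of Hspg2 to Agrn separates the groups, by a difference of -0.45, while Hspg2 to type IV collagen differs by -0.012.

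Perlecan was also set against the collagen it binds. Within each library, the log2 ratio of Hspg2 counts to the summed counts of Col4a1 and Col4a2 was 0.031, 0.251 and 0.115 in WT and 0.157, 0.155 and 0.048 in CharmeKO. These ratios overlapped, with means of 0.13 ± 0.11 and 0.12 ± 0.06 (SD, n = 3), and the difference of -0.012 gave p = 1.0 in the two-sided exact permutation test. Perlecan counts were thus 1.10 times those of the collagen pair in WT and 1.09 times in CharmeKO. The sign of this small difference turned when WT replicate 2 or CharmeKO replicate 3 was left out, and among the libraries without Y-linked transcripts it was 0.13.

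Per length, the order over the 6 libraries was Hspg2 at 871 CPM per kb of exons, Col15a1 at 388, Nid1 at 339, Hmcn2 at 81.1, Agrn at 59.4, Nid2 at 58.1, Col18a1 at 40.0 and Hmcn1 at 3.05. Hspg2 was above Col15a1 in 6 of 6 libraries, and Nid1 above Hmcn2, Nid2 above Col18a1 and Col18a1 above Hmcn1 also in 6 of 6. The order of the group means differed in part, with Nid1 (298 CPM per kb) over Col15a1 (283) in CharmeKO and Nid2 (66.3) over Agrn (63.2) in WT. Neighbours that changed places between libraries were Col15a1 and Nid1, Hmcn2 and Agrn, and Agrn and Nid2, each pair in the stated order in 4 of 6. The ranges over libraries were separate only between Nid1 and Hmcn2 and between Col18a1 and Hmcn1. In each pair of paralogs the order, Nid1 over Nid2, Col15a1 over Col18a1 and Hmcn2 over Hmcn1, was the same in all 6 libraries.

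**Figure D3:**
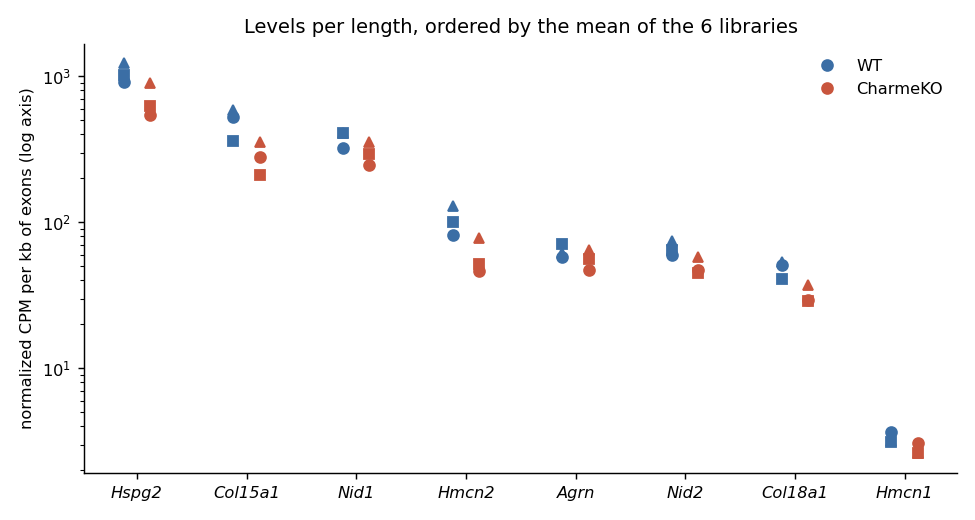
Normalized CPM per kb of exons (log axis) for the 8 genes in the order of their mean over 6 libraries, WT in blue and CharmeKO in red, with circle, square and triangle for replicates 1, 2 and 3. Hspg2 at 871 and Hmcn1 at 3.05 CPM per kb are the ends of the order, and the values of Hmcn2, Agrn and Nid2 overlap.

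The 8 genes together took 2.12% to 2.67% of all counts in WT and 1.38% to 1.96% in CharmeKO, and perlecan alone was 60.02% to 64.2% of that sum in every library. The summed level was 21345, 22572 and 27552 CPM in WT and 12988, 14155 and 20054 CPM in CharmeKO. WT replicate 3, which has the fewest counts, was the highest library in 5 of the 8 genes. CharmeKO replicate 3, 1 of the 3 libraries with Y-linked transcripts, was the highest CharmeKO library in 7 of the 8. The lowest library was CharmeKO replicate 1 in 4 genes, replicate 2 in 3 and replicate 3 in 1.

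Within each side of the Y-linked split all 8 genes had a fitted log2 fold change under 0. Without Y-linked transcripts, WT replicate 1 against CharmeKO replicates 1 and 2, the log2 fold changes were -1.11 for Col15a1, -0.82 for Col18a1, -0.73 for Hmcn2, -0.66 for Hspg2, -0.39 for Nid2, -0.36 for Hmcn1, -0.26 for Nid1 and -0.17 for Agrn. edgeR's quasi-likelihood test gave adjusted p of 0.0134 for Col15a1 and 0.0263 for Col18a1 there, where 0.934% of all genes so tested passed as lower. These p-values rest on the lone WT library varying like the CharmeKO pair, on a split made after seeing the data, and are no test of the genotype across animals. With Y-linked transcripts, WT replicates 2 and 3 against CharmeKO replicate 3, they ran from -0.55 for Hmcn2 and -0.42 for Col15a1 to -0.036 for Agrn, and 0 of the 8 passed, where 0.021% of the genes tested there passed as lower. With a term for the split in the fit of all 6 libraries the values were -0.76 for Col15a1, -0.64 for Hmcn2, -0.57 for Col18a1 and -0.48 for Hspg2, and 0 of the 8 passed, where 0.317% of all tested genes passed as lower.

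**Figure D4:**
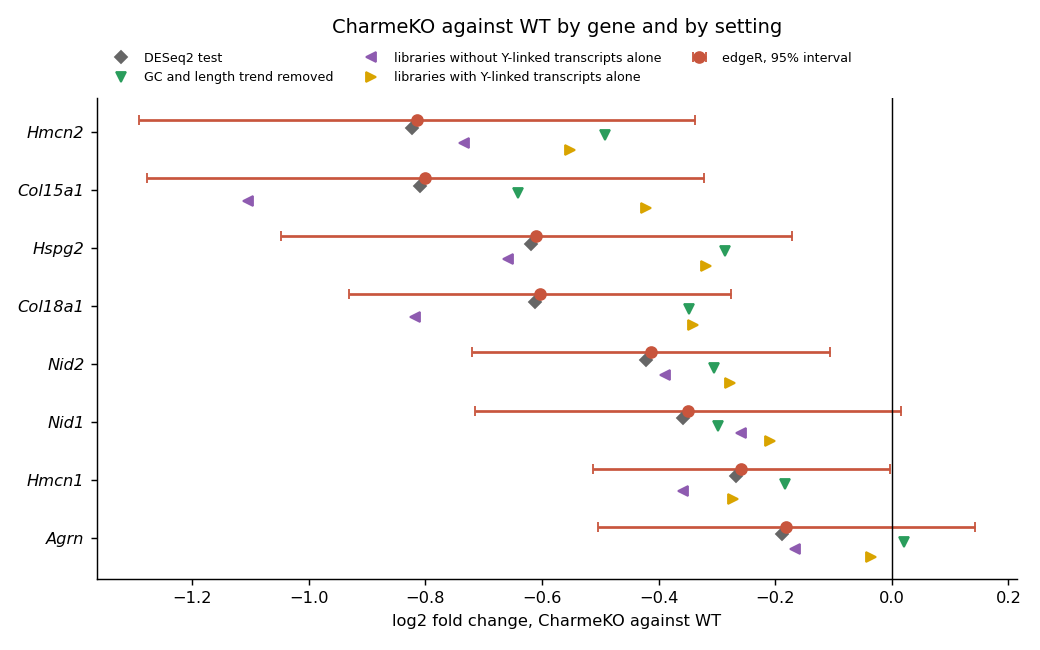
Log2 fold change of CharmeKO against WT for the 8 genes, by edgeR with its 95% interval (red) and under 4 other settings. Every symbol lies under 0 except Agrn with the GC and length trend removed, at 0.02, and Hspg2 moves from -0.61 to -0.29 under that correction.

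The other genes of the basement membrane were read from the same fit. All 6 type IV collagen genes were lower in CharmeKO with a median of -0.60, and 2 fell by the test, Col4a4 with a log2 fold change of -1.10 and an adjusted p of 0.0305 and Col4a3 with -0.89 and 0.0459 in edgeR's quasi-likelihood test. With the GC and length trend removed 0 of the 6 passed. Col4a1 and Col4a2, the abundant chains of the network, had -0.53 and -0.68 and did not pass edgeR's test, and Col4a5 had -0.52. DESeq2 called 3 of the 6 lower, Col4a2 (adjusted p of 0.0341), Col4a3 and Col4a4, where it called 1.52% of all tested genes lower. Of 10 laminin genes tested of 11, 9 were lower and 1 higher with a median of -0.32, and Lamc3 fell by 2.70 on the log2 scale with an adjusted p of 0.00148, from 10.9 ± 4.00 to 1.66 ± 0.29 CPM (SD, n = 3). Lamc1, the chain that nidogen binds, had -0.53 with an adjusted p of 0.207 in edgeR's quasi-likelihood test and 0.0206 in DESeq2, which called it and Lamc3. Lamb1 and Lamb2 had -0.25 and -0.30.

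Of 16 tested genes of 17 for further linkers and crosslinkers, 13 were lower and 3 higher with a median of -0.30, and 0 passed edgeR's test. At an unadjusted p under 0.05 in that test stood 4 lower and 1 higher, where 12.8% of all tested genes did. DESeq2 called 3 lower, where it called 1.52% of all tested genes lower. Pxdn, the peroxidase that forms sulfilimine bonds in type IV collagen, had a log2 fold change of -0.51 and was called by DESeq2 (adjusted p of 0.0389), Sparc, a collagen-binding matricellular protein, had -0.32, and Fbln2, a nidogen-binding fibulin, had -0.27. Of 14 receptor genes 9 were lower and 5 higher with a median of -0.12, 0 passed either tool, and 1, a lower one, had an unadjusted p under 0.05. Dag1, the dystroglycan that binds agrin and perlecan, had 431 ± 19.0 CPM in WT and 381 ± 29.3 in CharmeKO (SD, n = 3), with -0.18, and Itgb1, the common integrin beta chain, had 0.07, and Bcam, a laminin receptor, had -0.08.

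Of 23 tested genes of 27 that make, edit or cleave heparan sulfate, 11 were lower and 12 higher, with a median of 0.03. Sulf2, an extracellular sulfatase that removes sulfate groups from the chains, fell from 340.2 ± 27.6 to 212 ± 25.6 CPM (SD, n = 3), a log2 fold change of -0.68 with an adjusted p of 0.0381 in edgeR's quasi-likelihood test, which it no longer passed with the GC and length trend removed or with a term for the Y-linked split. Its paralog Sulf1 had 0.08, and Ndst1, which starts the sulfation of the chains, had -0.28. Of 12 tested of 14 protease genes 7 were lower and 5 higher with a median of -0.11, and 0 passed edgeR's test. At an unadjusted p under 0.05 in that test stood 3, all lower, where 12.8% of all tested genes did. DESeq2 called 3 lower, where it called 1.52% of all tested genes lower. Mmp2, a gelatinase that cleaves type IV collagen, had -0.66 with an adjusted p of 0.123 in edgeR's quasi-likelihood test and 0.00227 in DESeq2, Adamts1 had -0.20 and the cathepsin gene Ctsb had 0.06.

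**Figure D5:**
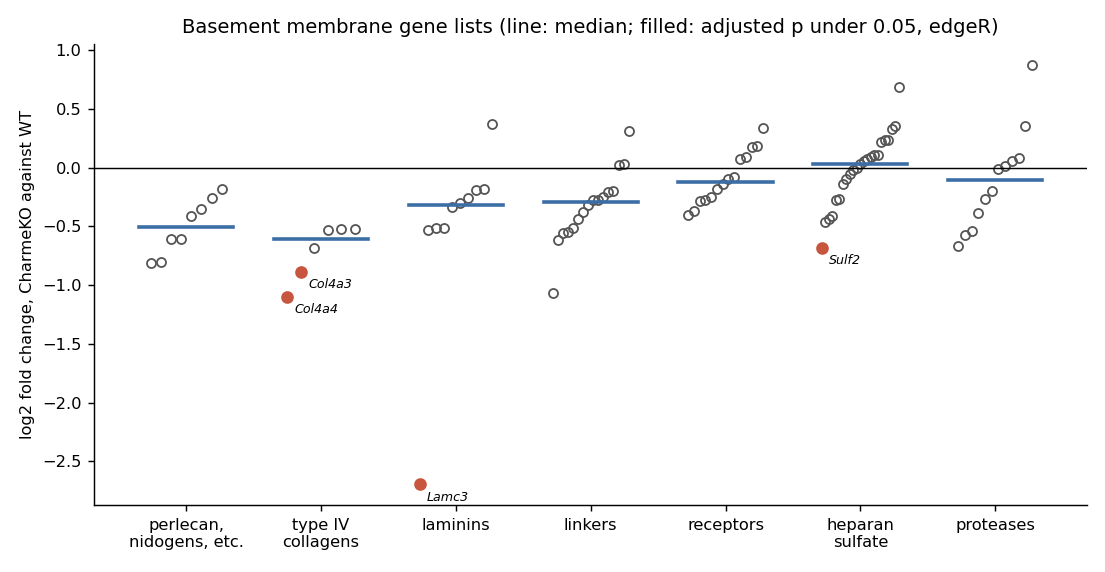
Log2 fold change of CharmeKO against WT for each tested gene of 7 lists, with the blue line at the list's median and filled red points for an adjusted p under 0.05 in edgeR. The medians run from -0.60 for type IV collagens to 0.03 for heparan sulfate genes, and Lamc3, Col4a4, Col4a3 and Sulf2 are the filled points.

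The genes whose profile over the 6 libraries was nearest to each of the 8 were found by the root-mean-square difference of centred log2(CPM + 1) values among 8906 genes of mean CPM of at least 10. The nearest to Hspg2 were Prr5 at 0.055 and Itga5, an integrin chain of the fibronectin receptor, at 0.072. Col1a1, a chain of type I collagen, at 0.077 and Adamts2, a procollagen peptidase, at 0.086 were nearest to Col15a1. Adamtsl4 at 0.049 and Kif3a at 0.062 were nearest to Col18a1, and Nectin1 at 0.10 and Kcp at 0.108 to Hmcn2. Nid2 was followed most closely by Prelp, a heparin-binding proteoglycan of the matrix, at 0.037 and Selenon at 0.047, and Nid1 by Dym at 0.027 and Tsc22d4 at 0.043. Agrn lay nearest to Dcun1d3 at 0.019 and Usp20 at 0.040, and Hmcn1 to Rap2c at 0.048 and Otud1 at 0.052. Among themselves the 8 were nearest as Agrn with Nid1 at 0.114, Hspg2 with Hmcn2 at 0.123 and Nid1 with Nid2 at 0.124, and the farthest pair was Hmcn1 with Hmcn2 at 0.479. The profiles were centred but not scaled, so the distances follow the size of a profile as well as its shape. A gene's own root-mean-square value ran from 0.16 in Hmcn1 to 0.51 in Hmcn2. With 6 libraries these distances are descriptions and carry no test.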

How the data were processed

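Per the labels, poly(A) RNA of native CFs was sequenced in directional libraries. The authors filtered reads for quality, aligned them with STAR and deposited raw gene counts of the reverse strand, on an Ensembl annotation with Charme added. The submitters' processing notes list STAR, DESeq2, GRCh38 and GRCm39 without versions of the tools. The 8 genes, the basement membrane lists and the marker lists were chosen with earlier results of these data known, and support nothing by their choice. Genes with 10 or more counts in 2 or more of the 6 libraries (15789) were normalized by TMM, given as CPM, and tested for CharmeKO against WT by the quasi-likelihood method of edgeR 4.0.16 (R 4.3.3), with Benjamini-Hochberg adjustment over all of them and a threshold of 0.05. SEs were derived from the F statistics. Ratios were tested with exact permutation over the libraries. DESeq2 1.42.0 was an alternative, as were other scalings and filters, a block for the replicate number, offsets that take out the loess trend of a library over GC content and length, and each library left out. The Y-linked split was added after seeing the data, the libraries being divided at 50 CPM summed over Ddx3y, Eif2s3y, Kdm5d and Uty. The fit was tested on simulated data, in which it recovered 160 of 200 genes changed by 1.5 on the log2 scale, among 15245 genes tested, and called 5 others. The largest fitted change among the 8 genes was -0.81, so this recovery does not give the chance of calling changes of their size. Besides the 8 genes, the text names the genes of each list past the test, the 3 most abundant of each basement membrane list, the genes of the ratios, the 2 nearest profiles to each of the 8, and Charme. Gsn is named for its weight in the fibroblast sum. Exon lengths and GC content are from the GENCODE annotation and the promoter stretches from RefSeq, both on GRCm38. As the notes list GRCh38 and GRCm39, the build of the counts is not settled and may be another. The members' models share no exonic bases with a gene on the same strand. Depth was 9595701 to 42101393 counts a library. The cultured CFs and protein data of the study were not analysed here. Figures were drawn with matplotlib 3.10.9.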

Additional observations from a re-analysis of the deposited data

How the results depend on the processing

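Of all tested genes 131 passed, against 394 by DESeq2, 699 without a gene filter, 61 to 349 with 1 library left out, the most without WT replicate 2 and the fewest without CharmeKO replicate 1, 224 in the libraries without Y-linked transcripts and 6 in those with them. Of the 8 genes 0 passed, against 4 by DESeq2, 4 without a filter, 0 to 2 with 1 library left out (2 without WT replicate 2, 1 without CharmeKO replicate 3) and 2 in the libraries without Y-linked transcripts. Their median of -0.51 became -0.30 with the GC and length trend removed, as far as in the libraries with Y-linked transcripts alone (-0.30), and the sign of Agrn turned to 0.022 under the former. Type IV collagen calls (2) became 1 with 10 counts asked in 5 libraries or with a Y-linked term, 5 without a filter, 0 with the trend removed or in the libraries with Y-linked transcripts, and 0 to 3 with 1 library left out. Laminin calls (1) became 2 by DESeq2, 2 without a filter and 0 in the libraries with Y-linked transcripts. Linker calls (0) became 3 by DESeq2, 3 without a filter and 0 to 2 with 1 library left out, and protease calls (0) became 3, 3 and 0 to 2. Heparan sulfate calls (1) became 2 without a filter, 0 with the trend removed, with the Y-linked term or on either side of the Y-linked split, and 0 to 1 with 1 library left out. The log2 difference of the ratio of Nid1 to Nid2 ran from -0.004 to 0.147 with 1 library left out, and that of Hspg2 to type IV collagen from -0.063 to 0.047, with 0.125 in the libraries without Y-linked transcripts. The causes of these shifts were not tested.

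The replicate numbers are not stated to mark a shared litter or day. Same-numbered libraries of the 2 groups had correlations of their deviations of 0.216, 0.053 and 0.161. Every library correlated best with its own number, but for WT replicate 2 the next value, with CharmeKO replicate 3, was close at 0.039. These values do not settle whether the numbers pair the libraries, and the main fit took no pairing. With the replicate number as a block 302 genes passed, among them 3 of the 8 (Col15a1, Col18a1 and Hmcn2, where 1.18% of all genes passed as lower), 4 type IV collagen, 2 linker and 3 protease genes.

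With 3 libraries a group the exact permutation tests of the ratios could not go under p = 0.1. All 8 genes had enough counts, 625 at the least, in Hmcn1 of WT replicate 3, that the spread between libraries and not counting limits the values. On each side of the Y-linked split 1 group holds a single library, which was taken to vary like the others, so these values rest on it.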
